A study of Mus musculus with 23 samples.

Results

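Of the 6128 THRAP3 peaks that the authors called in WT β-TC6 replicate 2, 431 were chosen here. Each overlapped by at least 1 bp a peak of Bmal1-/- replicate 1 and a peak of Bmal1-/- replicate 2, overlapped no peak of WT replicate 1, and had its centre within 1 kb of an annotated transcript start of mm10. The choice used the peak calls and the position, so the ChIP-seq signal of these peaks and their closeness to a start are described without a test. The 431 members made up 22.0% of the 1955 promoter peaks of WT replicate 2 and 23.7% of its 1819 peaks shared by the 3 libraries. They lay nearest to the starts of 428 genes, of which Dst, Fkbp5 and Mdc1 had 2 peaks each.

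β-TC6 is a mouse insulin-secreting line from an insulinoma of transgenic mice, and the study asked whether loss of the circadian activator BMAL1 changed where THRAP3 sits on chromatin. ChIP-seq was done with 1 antibody in 2 Bmal1-/- and 2 WT libraries, and RNA-seq in 3 Bmal1-/-, 3 Clock-/- and 3 WT libraries, all without a treatment in the labels. The Bmal1-/- cells carried a CRISPR–Cas9 deletion of exon 8 of Bmal1, the Clock-/- cells a deletion of exons 6 and 7 of Clock, and the WT cells no edit. Each knockout line was grown from a single hand-picked colony after drug selection (neomycin for Bmal1-/-, puromycin for Clock-/-), so all p-values measure the spread between libraries of 1 clone and of WT cells, and a change due to the deletion cannot be told apart from one due to the clone.

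THRAP3, thyroid hormone receptor-associated protein 3, is a nuclear protein rich in arginine and serine that was first purified with the Mediator complex. It takes part in pre-mRNA splicing and mRNA export, and it can be recruited to chromatin as a coactivator, among others by the CLOCK–BMAL1 dimer, which binds E-box sequences. Many mammalian promoters lie in CpG islands, stretches rich in G, C and the CG dinucleotide, where factors of the SP/KLF, ETS and NRF1 families bind, while AP-1 factors are best known at enhancers.

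The 4 ChIP-seq libraries differed in the share of their tags that lay in peaks. Per the file headers they held 12734067 and 14961095 tags in Bmal1-/- and 12296107 and 12882958 tags in WT, but 1.86% and 1.67% of the tags lay in peaks in the Bmal1-/- libraries, against 0.11% in WT replicate 1 and 0.76% in WT replicate 2. The lists held 12949 and 12226 peaks in Bmal1-/- and 808 and 6128 in WT. The members are therefore peaks found in the 3 libraries with more tags in peaks and absent from the list of the library with the fewest. Whether the low share of tags in peaks in WT replicate 1 led to that absence was not tested. Between genotypes their signal rests on 2 Bmal1-/- libraries and 1 WT library.

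Sequences of members show what these regions look like, from the strongest to those whose genes changed most. They were read from the GRCm38 reference along the strand of the nearest transcript, and a stretch inside exons is cut to at most 30 bases. Capitals mark an ETS motif (CCGGAAG, here on the other strand as CTTCCGG), an E-box (CACGTG), a CRE (TGACGTCA), an NRF1 motif (GCATGCGC, here on the other strand), or an AP-1 motif (TGANTCA). The members with the highest WT replicate 2 signal that held an ETS motif, an E-box, and a CRE or an NRF1 motif were those at Mdc1 (chr17:35841599-35841627), Cdca2 (chr14:67715441-67715469) and Dapk3 (chr10:81182857-81182886 and chr10:81182996-81183025). The highest 2 members of all, at Setd1a (chr7:127777161-127777190) and Dst (chr1:34006404-34006626), held none of the 4 motifs.
Mdc1: ccaccgactctCTTCCGGgattcgcactc
Cdca2: gtacccacgtcaCACGTGgtccacggctc
Dapk3, CRE: gccttgggtgaTGACGTCActagtcaacgt
Dapk3, NRF1: ctgcgctgtcaGCGCATGCgtagatgccgt
Setd1a: tggatcagggtggtgcggtccactctccgg
Dst: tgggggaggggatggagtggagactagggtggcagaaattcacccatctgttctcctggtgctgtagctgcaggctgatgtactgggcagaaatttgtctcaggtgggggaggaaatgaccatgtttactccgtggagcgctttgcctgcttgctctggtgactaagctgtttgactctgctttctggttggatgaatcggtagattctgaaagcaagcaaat

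Further members were picked for print after the RNA values of their genes had been seen, because those genes changed strongly in Bmal1-/- cells. The first 3 are members with an AP-1 motif, at Cryba2 (chr1:74893144-74893296, minus strand), Mir22hg (chr11:75461100-75461322) and Abhd15 (chr11:77516420-77516642). Kdm4b (chr17:56325735-56325957) held an E-box and Scfd1 (chr12:51377513-51377541) an ETS motif. Pam (chr1:97977260-97977397, minus strand), Odc1 (chr12:17544939-17544968) and Syt7 (chr19:10388730-10388952) held none of these motifs in the bases shown.
Cryba2: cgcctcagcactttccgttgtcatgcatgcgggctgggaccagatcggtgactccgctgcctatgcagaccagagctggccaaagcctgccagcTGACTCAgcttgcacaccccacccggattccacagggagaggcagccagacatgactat
Mir22hg: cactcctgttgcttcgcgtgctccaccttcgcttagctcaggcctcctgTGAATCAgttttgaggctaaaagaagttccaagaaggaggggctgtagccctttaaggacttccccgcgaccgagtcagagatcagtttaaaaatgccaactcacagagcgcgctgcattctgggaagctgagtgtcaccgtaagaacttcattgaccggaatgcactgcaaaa
Abhd15: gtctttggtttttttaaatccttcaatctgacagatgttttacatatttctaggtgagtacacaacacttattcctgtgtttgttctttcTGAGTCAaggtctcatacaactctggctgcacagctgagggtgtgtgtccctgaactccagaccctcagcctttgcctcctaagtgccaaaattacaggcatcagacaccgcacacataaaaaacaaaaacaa
Kdm4b: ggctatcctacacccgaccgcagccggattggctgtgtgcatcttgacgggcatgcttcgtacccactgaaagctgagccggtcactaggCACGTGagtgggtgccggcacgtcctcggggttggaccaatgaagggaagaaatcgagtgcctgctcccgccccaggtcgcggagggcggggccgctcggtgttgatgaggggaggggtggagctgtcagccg
Scfd1: tcctggttctgCTTCCGGcgcgggaggta
Pam: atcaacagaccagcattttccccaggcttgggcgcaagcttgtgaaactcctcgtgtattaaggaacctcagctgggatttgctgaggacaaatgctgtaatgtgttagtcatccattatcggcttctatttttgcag
Odc1: tataagtagcggcgcgtcgcaccgtcgggc
Syt7: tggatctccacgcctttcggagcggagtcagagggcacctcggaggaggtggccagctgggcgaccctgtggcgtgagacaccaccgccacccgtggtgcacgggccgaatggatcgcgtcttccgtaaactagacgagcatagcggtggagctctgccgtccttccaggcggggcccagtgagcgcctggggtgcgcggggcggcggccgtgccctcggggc

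The members were weak peaks beside the promoter peaks that all 4 libraries shared. Their median normalized tag count, the number of tags in a peak scaled to the same total in each library, was 17.3 (range 7.85 to 60.5) in Bmal1-/- replicate 1 and 16.0 (7.35 to 72.9) in Bmal1-/- replicate 2, against 11.6 (7.76 to 41.1) in WT replicate 2. The 94 promoter peaks of all 4 libraries had medians of 28.3 and 27.05 in Bmal1-/-, against 13.0 and 22.5 in WT. Of the members, 23 (5.34%) reached that 22.5 in WT replicate 2, and 16 of the 94 (17.0%) lay above the highest member. The 1388 distal peaks of the same 3 libraries had medians of 15.7, 15.4 and 11.6, and the 902 promoter peaks of WT replicate 2 alone had a median of 9.31 there, so the members were closer to the distal peaks in signal than to the promoter peaks of all 4 libraries.

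**Figure D1:**
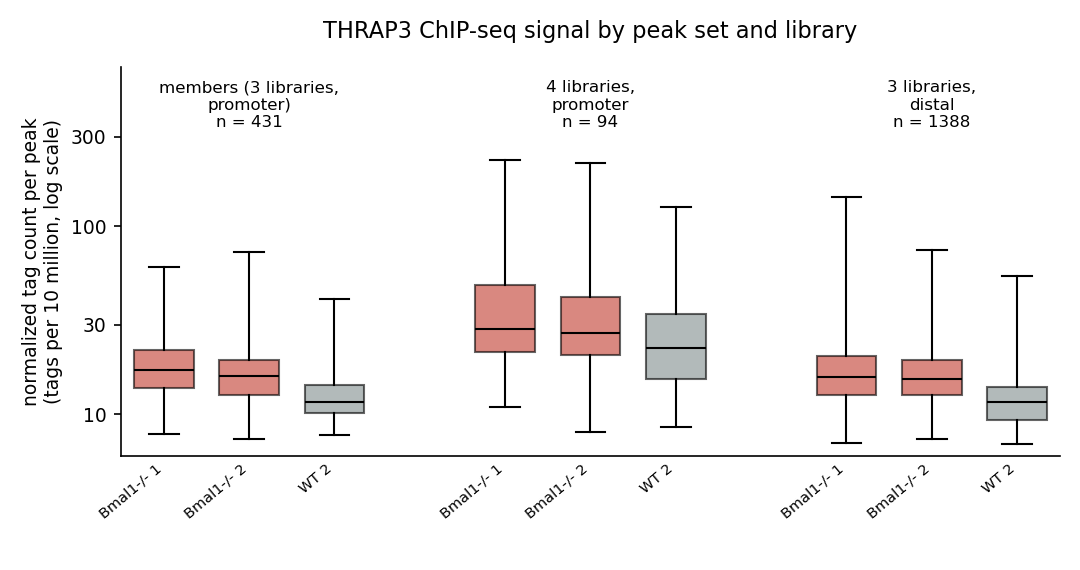
Normalized tag count per peak (tags scaled to the same total per library, log scale) in both Bmal1-/- libraries and WT replicate 2, for the 431 members, the 94 promoter peaks of all 4 libraries and the 1388 distal peaks of the same 3 libraries; boxes span the quartiles with the median as a line, and whiskers the lowest and highest peak. The member medians of 17.3, 16.0 and 11.6 lie below those of the promoter peaks of all 4 libraries and near those of the distal peaks.

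At most members the Bmal1-/- signal was above that of WT replicate 2. Both Bmal1-/- libraries were higher at 332 of 431 members (77.0%) and both were lower at 24 (5.57%). At 75 members the 2 libraries lay on either side. Of the promoter peaks of all 4 libraries, both were higher at 68.1% and lower at 12.8%. Of the distal peaks of the same 3 libraries, both were higher at 76.0% and lower at 8.29%. Peak size was 249 and 245 bp in the Bmal1-/- libraries and 222 bp in WT replicate 2. Whether peak size had a part in these differences was not tested. The median ratio of the Bmal1-/- mean to WT replicate 2 was 1.35 (range 0.693 to 3.28), against 1.31 at the promoter peaks of all 4 libraries and 1.35 at the distal peaks, so the shift was about the same size in all 3 sets. Between the 2 Bmal1-/- libraries the median ratio was 1.10. Taken as fold over input in place of tag count, the median ratio at members was 1.21. Across the 431 members, the tag counts of the 2 Bmal1-/- libraries had a Pearson r of 0.778, and each had an r of 0.637 or 0.652 with WT replicate 2; the points share their library and the call threshold, and the r describes these peaks only.

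The 10 strongest members in WT replicate 2 lay at genes of mixed function. The peak at Setd1a, a methyltransferase that places H3K4 methylation at promoters, was the highest, with 60.5 and 60.8 in Bmal1-/- and 41.1 in WT (chr7:127777064-127777286, centre 26 bp downstream of the start). Mdc1, which binds phosphorylated H2AX at DNA breaks, had 51.8 and 48.8 against 33.4 (chr17:35841517-35841739). Cdca2, which brings protein phosphatase 1 to chromatin late in mitosis, had 43.2 and 42.8 against 31.8 (chr14:67715441-67715663). Cdc20, the activator of the anaphase-promoting complex, had 47.1 and 32.8 against 30.3 (chr4:118437214-118437436). In these 4, both Bmal1-/- libraries stood above WT.

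Among the other 6, Tspan5, a tetraspanin of the cell surface, had the largest gap of the 10, with 55.8 and 72.9 in Bmal1-/- and 30.3 in WT (chr3:138782628-138782850). Prdx1, a peroxide-reducing enzyme, had 43.2 and 32.1 against 31.0 (chr4:116685344-116685566). The mitochondrial deadenylase gene Pde12 had 36.1 and 42.8 against 34.9 (chr14:26669683-26669905). At those 3 both Bmal1-/- libraries again stood above WT. The remaining 3 did not share this order. Dst, which encodes a large cytoskeletal linker, had 32.2 and 28.7 against 37.3, both below WT (chr1:34006404-34006626). The forkhead gene Foxp1 had 36.1 and 24.7 against 31.8 (chr6:99522727-99522949), and Gm45640, an unclassified transcript, had 29.1 and 32.8 against 30.3 (chr8:90877253-90877475), so at both the WT value fell between the Bmal1-/- values.

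At the ends of the range of ratios stood other genes. The largest ratio was at the microRNA gene Mir7032, with 36.9 and 29.4 in Bmal1-/- and 10.1 in WT (ratio 3.28). Cdkn2d, an inhibitor of the cyclin D kinases, had 36.1 and 27.4 against 11.6 (2.74). Amdhd2, an enzyme of N-acetylglucosamine breakdown, had 32.2 and 22.1 against 10.1 (2.69). Then came Arl6ip1, an endoplasmic reticulum membrane protein, with 43.2 and 26.1 against 13.2, and the lincRNA 3300005D01Rik with 24.3 and 19.4 against 8.54. All 5 stood above the member median of 17.3 and of 16.0 in the Bmal1-/- libraries, which a choice by high ratio favours. Their WT counts ran from 8.54 to 13.2, beside a member minimum of 7.76 and median of 11.6. The lowest ratios were at Gstz1, an enzyme of tyrosine breakdown, with 12.6 and 15.4 against 20.2 (0.693), at the lincRNA 2400006E01Rik with 13.4 and 8.69 against 15.5, and at Neurl1b, a ubiquitin ligase of Notch ligands, with 11 and 14.7 against 17.9. Fancc, of the Fanconi anaemia complex, had 12.6 and 9.36 against 14.7, and Prkcz, an atypical protein kinase C, 11 and 11.4 against 14.7.

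Member peaks clustered tightly on transcript starts. The median centre lay at -14 bp (quartiles -146.5 and 66.5), with 238 centres upstream, 191 downstream and 2 at the start itself. Within 100 bp of a start lay 208 of 431 (48.3%), against 42.6% of the promoter peaks of all 4 libraries, 54.3% of the 1601 promoter peaks of both Bmal1-/- libraries alone and 35.3% of those of WT replicate 2 alone. Within 500 bp lay 375 (87.0%). At the 1 kb threshold the last peaks inside were at Usp29 (992 bp, tag counts of 10.2 and 10 in Bmal1-/- and 10.1 in WT), Ppp2r2d (996 bp, 11, 12 and 10.1) and Gstt2 (999 bp, 17.3, 10 and 9.31), and the first outside at Nfkb1 (1021 bp, 10.2, 10 and 10.1), Gm45576 (1029 bp, 11, 11.4 and 9.31) and Mir7026 (1075 bp, 18.8, 10 and 10.1).

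**Figure D2:**
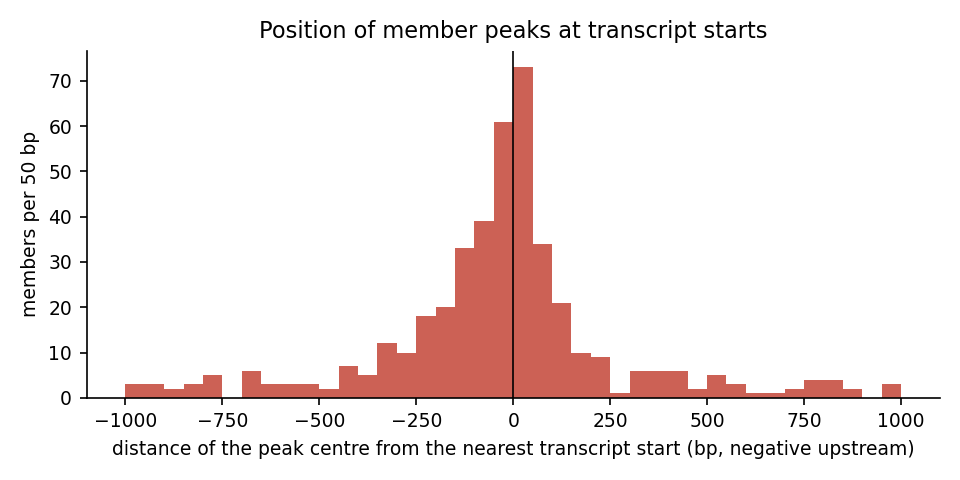
Distance of the 431 member peak centres from the nearest annotated transcript start (bp, negative upstream, bins of 50 bp; the count of members per bin is on the vertical axis). The counts peak at the start, with 208 members within 100 bp, and thin out towards 1 kb on both sides.

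Most members lay nearest to a protein-coding gene, and most lay within 1 kb of the outer 5′ end of their gene. The nearest gene was protein-coding for 345 members (80.05%), a lincRNA for 26, an antisense RNA for 16, an unclassified transcript for 13 and a microRNA for 6. At 92 members (21.3%) starts on both strands lay within 1 kb, and at 42 (9.74%) both were protein-coding. The outer 5′ end of the gene lay within 1 kb for 353 members (81.9%), while 78 (18.1%) sat only at an internal start. Those internal starts could be far inside the gene, at 519079 bp for Fstl5, 118360 bp for Pam, 98290 bp for Dst and 40544 bp for Tspan5. They are starts by annotation only, and whether transcription began there in these cells was not tested. By the annotation, 131 centres (30.4%) lay outside transcripts, 113 (26.2%) in a UTR, 112 (26.0%) in an intron, 46 (10.7%) in another exon and 29 (6.73%) in coding sequence. Members lay on 20 chromosomes, most on chromosomes 11 (39), 4 (37) and 1 (33).

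In base composition the members were CpG-rich, like the starts of expressed genes and the promoter peaks of Bmal1-/- alone or of WT replicate 2 alone. In the 200 bp around the centre, the median GC content was 62.5% in members, against 55.25% in the promoter peaks of all 4 libraries, 44.5% in 1386 distal peaks of the same 3 libraries and 64.5% at the starts of 12308 protein-coding genes tested in the RNA-seq. The observed over expected CpG ratio had medians of 0.823, 0.651, 0.216 and 0.820 in the same order. By both measures (a ratio above 0.6 and a GC content above 50%), 62.4% of members were CpG-rich, as were 40.4% of the promoter peaks of all 4 libraries, 2.38% of the distal peaks and 72.1% of the coding starts. In the 1601 promoter peaks of both Bmal1-/- libraries alone the median GC content was 64.5%, the median ratio 0.830 and the CpG-rich share 74.0%. In the 902 promoter peaks of WT replicate 2 alone they were 64%, 0.775 and 65.0%. In the CpG-rich share members stood between the coding starts and the promoter peaks of all 4 libraries, and below both of the sets just named. All figures on composition and motifs are descriptions of these windows, with no test.

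The GC box was in more members than any other motif searched, and the AP-1 motif was less frequent than in the other shared peaks. Exact matches on either strand were counted in 200 bp windows. The SP/KLF GC box (GGGCGG) was in 45.5% of members, against 28.7% of the promoter peaks of all 4 libraries, 3.68% of the distal peaks and 56.8% of coding starts. The ETS motif was in 10.4% of members, against 3.19%, 0.794% and 14.9%. The AP-1 motif ran the other way, in 7.89% of members but 31.9% of the promoter peaks of all 4 libraries, 20.4% of the distal peaks and 2.75% of coding starts. In the 1601 promoter peaks of both Bmal1-/- libraries alone it was in 3.44%, and in the 902 of WT replicate 2 alone in 5.21%. Members thus had an AP-1 share between that of coding starts and that of peaks found in every library. The GC box was in 54.3% of those Bmal1-/- peaks and 43.6% of those WT replicate 2 peaks, and the ETS motif in 11.9% and 6.87%.

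The E-box, a site of CLOCK–BMAL1 and of other bHLH factors, was in 40 members (9.28%). It was in 4.26% of the promoter peaks of all 4 libraries, 2.96% of the distal peaks and 7.32% of coding starts. Among promoter peaks of both Bmal1-/- libraries alone it was in 7.37%, and among those of WT replicate 2 alone in 4.88%. In the 100 bp window the order against coding starts turned, at 3.94% of members, 4.42% of coding starts and 3.94% of those Bmal1-/- peaks. Over all 55413 annotated gene starts its share was 3.84%, and that of AP-1 was 5.00%. Some motifs had close shares in members and at coding starts: CCAAT (27.4% and 29.1%), the CRE core TGACG (23.0% and 25.7%), TATAAA (4.41% and 3.88%) and the nuclear receptor word AGGTCA (8.12% and 6.97%). The antioxidant response element (TGACNNNGC), which is bound by NRF2 with small MAF proteins, was in 15.3% of members and 10.9% of coding starts, and in 28.7% of the promoter peaks of all 4 libraries. NRF1 (0.928% and 4.27%), the CRE (1.86% and 2.92%) and YY1 (AANATGGCG, 2.32% and 4.94%) were rarer in members than at coding starts. The CRE core lies within the CRE, and an AP-1 motif can overlap an antioxidant response element. Of the members, 339 (78.7%) held none of the ETS, NRF1, CRE and E-box motifs.

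**Figure D3:**
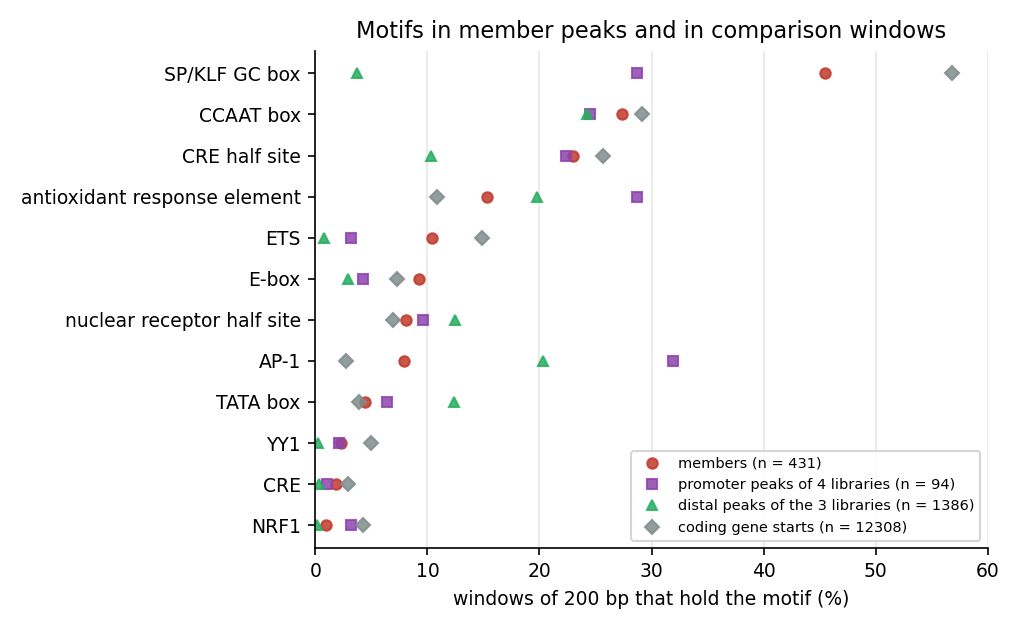
Share of 200 bp windows (%) that hold each of 12 motifs, for members (n = 431), promoter peaks of all 4 libraries (n = 94), distal peaks of the same 3 libraries (n = 1386) and starts of tested protein-coding genes (n = 12308). Members lie near the coding starts for most motifs, at 45.5% for the GC box and 10.4% for ETS, and for AP-1 their 7.89% stands between the 2.75% of coding starts and the 31.9% of promoter peaks of all 4 libraries.

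The RNA-seq gave a readout that the choice of members did not use. Of the 428 member genes, 396 were in the TPM table and 373 passed the filter of at least 1 TPM in at least 3 of 9 libraries, and the rest have no test. Since a gene could pass through 1 group alone, counts over the 373 describe those genes and not all members. The data are bulk RNA, in which fewer cells of a kind and less RNA per cell cannot be told apart. Member genes were well expressed, with a median of 35.4 TPM in Bmal1-/-, 29.5 in Clock-/- and 31.8 in WT cells, against 16.2, 15.5 and 16.2 over all 15031 genes tested. Among protein-coding genes alone, the WT medians were 35.7 (334 member genes) and 22.8 (12321 genes). The highest was Stmn1, which encodes the microtubule-destabilising protein stathmin, at means of 1024 TPM in Bmal1-/-, 610.6 in Clock-/- and 675.2 in WT cells.

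All 10 β-cell markers were at 1 TPM or more in every library, and they summed to 43300 to 46710 TPM in Bmal1-/-, 36790 to 42800 in Clock-/- and 59230 to 61760 in WT cells. Ins2 and Iapp made up most of these sums, and single markers differed more, as Ins1 was at 57.6 to 64.0 TPM in Clock-/- and 2277 to 2359 in WT cells and Slc2a2 at 34.2 to 50.7 in Bmal1-/-, 5.80 to 8.25 in Clock-/- and 101.6 to 113.4 in WT cells. Markers of other islet endocrine cells (4 of 6 in the table) summed to 67.6 to 76.5, 1499 to 1674 and 557 to 576. Exocrine and duct markers (3 of 7) summed to at most 8.64 TPM and stromal, endothelial and immune markers (5 of 7) to at most 22.9, with Cdh5 at 0 in Bmal1-/- cells. Genes at 0 numbered 2189 to 2691 in the Bmal1-/- libraries, 791 to 1010 in Clock-/- and 687 to 905 in WT. Whether these differences have a part in the results below was not tested. Thrap3 itself did not pass the test in either line, at 77.9, 79.6 and 81.3 TPM in Bmal1-/-, 83.9, 59.5 and 94.1 in Clock-/- and 86.4, 86.6 and 72.7 in WT cells (adjusted p = 0.852 and 0.747, limma). Bmal1, listed as Arntl, was at 3.52, 3.32 and 3.41 in Bmal1-/-, 13.2, 10.6 and 16.2 in Clock-/- and 3.63, 3.52 and 4.22 in WT cells, and Clock at 30.9, 35.2 and 36.5, at 36.0, 28.03 and 46.6, and at 49.7, 46.7 and 40.9 in the same order. Because the deletions take out 1 or 2 exons, whole-gene TPM is no check of the labels.

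In Bmal1-/- cells member genes rose and fell about as often as other genes did. A call is an adjusted p under 0.01 from limma on log2(TPM + 1), fitted over 15031 genes. Among the 373 member genes 87 rose (23.3%), against a background of 18.4% of all genes tested, and 66 fell (17.7%), against a background of 21.0%. With a log2 fold change also beyond 1, 11 rose (2.95%, background 3.83%) and 20 fell (5.36%, background 7.97%). The median log2 fold change was 0.06 over member genes and -0.04 over all genes, and the median absolute change 0.35 and 0.39. Large changes were thus somewhat rarer at member genes than over all genes, and small rises somewhat more frequent, with no test of either difference.

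In Clock-/- cells, which were compared with the same 3 WT libraries and had no ChIP-seq, 25 member genes rose (6.70%, background 9.50%) and 55 fell (14.7%, background 14.4%). Beyond a log2 fold change of 1, 5 rose (1.34%, background 2.62%) and 10 fell (2.68%, background 4.78%). The median log2 fold change was -0.06 over member genes and -0.02 over all genes, and the median absolute change 0.22 and 0.27. The count of falls was 30 without WT replicate 1 and 33 without WT replicate 2, and that of rises 13 without Clock-/- replicate 1 or WT replicate 3 and 15 without WT replicate 2.

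**Figure D4:**
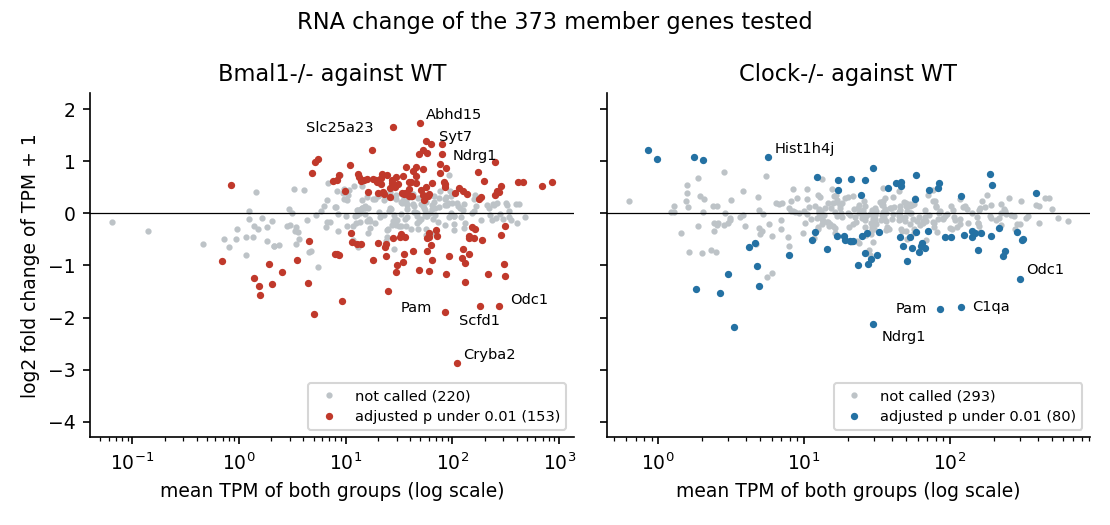
Log2 fold change of TPM + 1 (vertical axis) against the mean TPM of both groups (log scale) for the 373 member genes tested, in Bmal1-/- against WT (left) and Clock-/- against WT (right); coloured points have an adjusted p under 0.01. In Bmal1-/- cells 87 called genes lie above 0 and 66 below, with Cryba2 at the bottom and Abhd15 at the top, and in Clock-/- cells 25 lie above and 55 below.

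The strongest fall in Bmal1-/- cells was in Cryba2, a β-crystallin gene of the lens that is also active in endocrine islet cells. It was at 27.8, 25.1 and 24.3 TPM in Bmal1-/-, 117, 124 and 116 in Clock-/- and 180, 203 and 199 in WT cells. The 3 groups did not overlap, with Bmal1-/- lowest. The log2 fold change was -2.87 (SE 0.07, adjusted p = 4.98e-09) in Bmal1-/- and -0.70 (SE 0.07, adjusted p = 6.7e-05) in Clock-/- cells. Its member peak, with the AP-1 motif shown above, had tag counts of 23.6 and 19.4 in Bmal1-/- and 19.4 in WT replicate 2 and lay 42 bp upstream of the start.

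The next falls by size among the protein-coding genes were those of Pam and Scfd1. Pam, the enzyme that amidates the carboxyl end of peptide hormones, was at 34.2, 35.9 and 36.1 TPM in Bmal1-/-, 38.6, 31.4 and 40.3 in Clock-/- and 146, 129 and 126 in WT cells. Both knockouts lay far below WT and overlapped each other, with log2 fold changes of -1.88 (SE 0.10, adjusted p = 4.49e-07) in Bmal1-/- and -1.84 (SE 0.10, adjusted p = 7.78e-07) in Clock-/- cells. The Pam peak lay at an internal start, 118360 bp from the outer 5′ end of the gene. Scfd1, which helps SNARE proteins pair in traffic between the endoplasmic reticulum and the Golgi, was at 73.2, 83.5 and 85.1 TPM in Bmal1-/-, 280, 245 and 286 in Clock-/- and 299, 279 and 262 in WT cells. Only Bmal1-/- lay apart from the other two groups, with a log2 fold change of -1.79 (SE 0.09, adjusted p = 2.62e-07) against -0.05 (adjusted p = 0.675) in Clock-/- cells, and the lines differed by -1.73 (Bmal1-/- minus Clock-/-, adjusted p = 2.75e-07). Sec24d, named as the member of the list of COPI and COPII coats and not among the 10 largest falls, encodes a subunit of the COPII coat that carries cargo out of the endoplasmic reticulum. It was at 45.8, 42.8 and 44.2 in Bmal1-/-, 54.0, 42.6 and 60.3 in Clock-/- and 86.6, 83.0 and 79.8 in WT cells (log2 fold change -0.90, adjusted p = 0.000108, and -0.67, adjusted p = 0.00116).

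Both enzymes that make the polyamines putrescine and spermidine were member genes that fell. Odc1, ornithine decarboxylase, was at 128, 123 and 120 TPM in Bmal1-/-, 178, 165 and 191 in Clock-/- and 427, 417 and 431 in WT cells. The 3 groups did not overlap, with log2 fold changes of -1.77 (SE 0.06, adjusted p = 4.44e-08) in Bmal1-/- and -1.25 (SE 0.06, adjusted p = 5.8e-07) in Clock-/- cells. Its peak was 1 of those with a lower signal in both Bmal1-/- libraries (14.9 and 13.4) than in WT (17.1). Srm, spermidine synthase, was at 216, 168 and 184 in Bmal1-/-, 398, 384 and 356 in Clock-/- and 428, 430 and 440 in WT cells. It fell by 1.20 on the log2 scale (SE 0.09, adjusted p = 3.93e-06) in Bmal1-/- cells, and its Clock-/- change of -0.19 did not pass (adjusted p = 0.122). Its peak had 21.2 and 16.0 in Bmal1-/- and 11.6 in WT, a higher signal in both Bmal1-/- libraries.

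The other named falls were of mixed kind. Mir22hg, the transcript that hosts miR-22, was at 2.71, 5.23 and 3.93 TPM in Bmal1-/-, 16.9, 15.7 and 14.7 in Clock-/- and 15.3, 12.9 and 15.6 in WT cells (log2 fold change -1.68, adjusted p = 3.26e-05, and 0.11, adjusted p = 0.667), and its member peak had one of the higher ratios, with 40.8 and 36.8 against 17.9. Only Bmal1-/- stood apart there. Arrdc3, an arrestin-like adaptor of receptor degradation, was at 10.6, 14.4 and 13.0 in Bmal1-/-, 20.3, 17.0 and 22.6 in Clock-/- and 36.5, 41.0 and 34.7 in WT cells (-1.496, adjusted p = 1.27e-05, and -0.88, adjusted p = 0.000673). C1qa, a chain of complement C1q best known in macrophages, was at 76.1, 66.9 and 79.1 in Bmal1-/-, 46.5, 60.1 and 53.4 in Clock-/- and 188, 198 and 174 in WT cells (-1.32, adjusted p = 5.01e-06, and -1.79, adjusted p = 1.09e-06). The leukocyte marker Ptprc was at most 0.125 TPM in every library, and Cd68 was at 1.18 to 1.31 in Bmal1-/-, 20.9 to 22.2 in Clock-/- and 8.71 to 9.64 in WT cells. The antisense RNAs Gm16035 and Gm44418 were also among the 10, at -1.93 (adjusted p = 0.000493) and -1.33 (adjusted p = 0.00013) on the log2 scale, with at most 9.10 and 7.43 TPM. Reads of an antisense RNA and of the gene on the other strand may be mixed where counting took no account of strand.

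The largest rise was in Abhd15, a gene known in fat cells for its part in the insulin control of lipolysis. It was at 79.7, 74.4 and 76.3 TPM in Bmal1-/-, 24.5, 20.9 and 30.01 in Clock-/- and 23.4, 22.2 and 21.4 in WT cells. Bmal1-/- stood apart from both other groups, with a log2 fold change of 1.74 (SE 0.11, adjusted p = 1.81e-06) against 0.15 (adjusted p = 0.331) in Clock-/- cells. Its peak, with an AP-1 motif, lay 1410 bp from the outer end of the gene, at an internal start, with 20.4 and 23.4 in Bmal1-/- and 10.9 in WT. Slc25a23, a calcium-regulated carrier of ATP-Mg and phosphate in mitochondria, was at 44.6, 40.9 and 42.8 in Bmal1-/-, 22.3, 17.2 and 23.3 in Clock-/- and 11.96, 14.7 and 12.4 in WT cells. The 3 groups did not overlap (1.65, SE 0.12, adjusted p = 3.82e-06, in Bmal1-/- and 0.64, SE 0.12, adjusted p = 0.00253, in Clock-/- cells), and the Clock-/- call was lost under 4 of the other settings.

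Syt7, a synaptotagmin that senses calcium in insulin exocytosis, rose in Bmal1-/- cells. It was at 91.7, 89.7 and 90.7 TPM in Bmal1-/-, 25.8, 17.9 and 28.6 in Clock-/- and 36.2, 37.6 and 32.2 in WT cells, so Bmal1-/- was highest and Clock-/- lowest, without overlap. The log2 fold changes were 1.34 (SE 0.15, adjusted p = 4.53e-05) in Bmal1-/- and -0.56 (SE 0.15, adjusted p = 0.0137, not passing) in Clock-/- cells, and the lines differed by 1.90 (adjusted p = 4.24e-06). Ndrg1, a gene induced by hypoxia and metal chelation, went further apart, at 109.8, 109.6 and 109.0 TPM in Bmal1-/-, 10.6, 9.64 and 11.3 in Clock-/- and 49.99, 49.6 and 48.4 in WT cells. Both changes passed, at 1.13 (SE 0.07, adjusted p = 1.26e-06) and -2.13 (SE 0.07, adjusted p = 3.46e-08), and the lines differed by 3.26 (adjusted p = 1.79e-09). Its peak had 19.6 and 20.1 in Bmal1-/- and 10.1 in WT.

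The rest of the 10 largest rises were Map3k3, Kdm4b, Ppm1d, Efnb2, Phactr4 and Ubald2, and for each the Clock-/- value did not pass the test. Map3k3, a kinase upstream of MAP kinases, was at 85.7, 79.7 and 79.4 TPM in Bmal1-/-, 33.2, 21.0 and 39.5 in Clock-/- and 32.4, 30.7 and 28.3 in WT cells (log2 fold change 1.39, SE 0.18, adjusted p = 0.000153). Kdm4b, a demethylase of H3K9, was at 75.8, 71.6 and 77.1 in Bmal1-/-, 39.4, 32.9 and 46.4 in Clock-/- and 32.5, 32.9 and 29.8 in WT cells (1.21, SE 0.11, adjusted p = 1.55e-05). Ppm1d, a phosphatase that switches off the p53 and DNA damage response, was at 77.6, 80.9 and 82.6 in Bmal1-/-, 36.6, 30.9 and 38.1 in Clock-/- and 39.5, 33.4 and 33.6 in WT cells (1.16, SE 0.10, adjusted p = 7.83e-06). In all 3, Bmal1-/- lay above both other groups. Efnb2, a membrane ligand of Eph receptors, was at 22.2, 26.9 and 26.4 in Bmal1-/-, 10.5, 10.2 and 13.1 in Clock-/- and 11.2, 9.96 and 9.63 in WT cells (1.21, adjusted p = 2.47e-05). Phactr4, a regulator of actin and of protein phosphatase 1, was at 69.0, 65.3 and 67.6 in Bmal1-/-, 24.2, 17.1 and 27.04 in Clock-/- and 31.1, 32.6 and 26.8 in WT cells (1.14, adjusted p = 0.000134). Ubald2 was at 124, 110 and 110 in Bmal1-/-, 43.7, 46.4 and 44.2 in Clock-/- and 41.2, 48.8 and 44.2 in WT cells (1.34, adjusted p = 1.03e-06). The same order, with Bmal1-/- above both others, held for these.

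**Figure D5:**
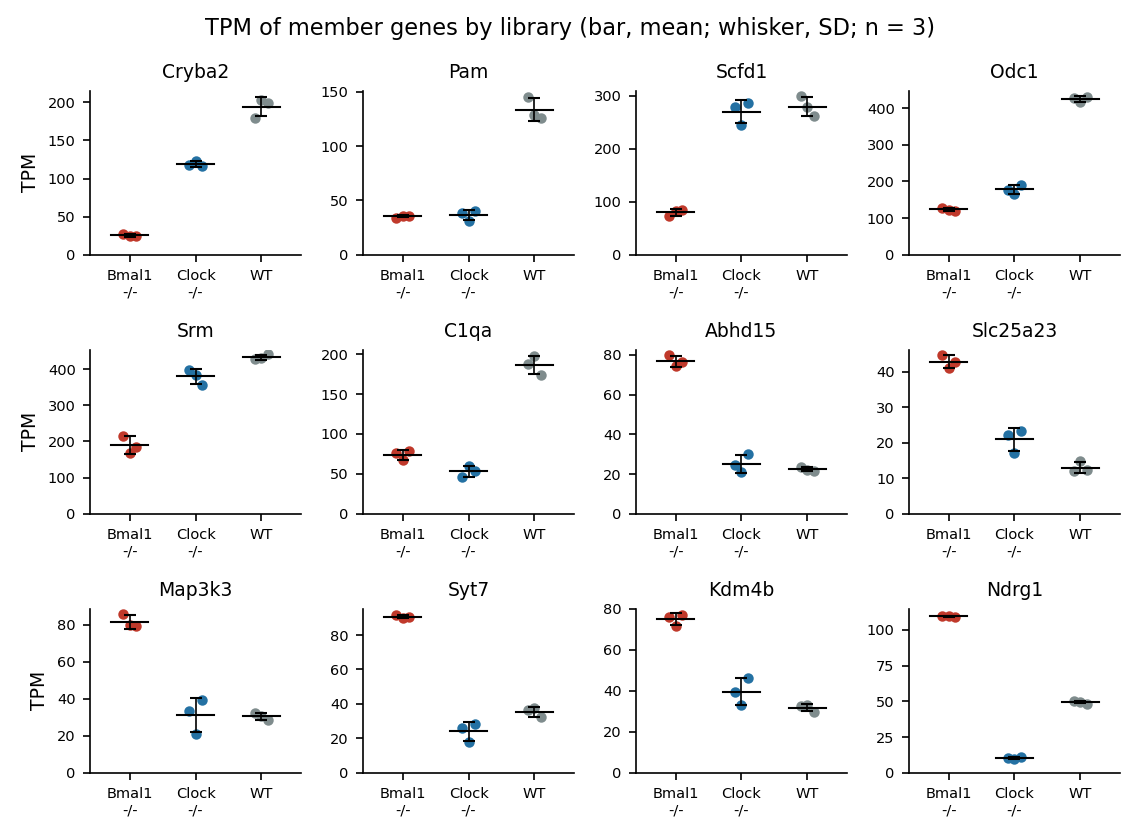
TPM of 12 member genes in 3 Bmal1-/-, 3 Clock-/- and 3 WT libraries (points), with the mean as a bar and the SD as whiskers (n = 3). Cryba2, Pam, Scfd1, Odc1, Srm and C1qa lie lower in Bmal1-/- than in WT libraries and the other 6 higher, and Ndrg1 is at 109.0 to 109.8 TPM in Bmal1-/- but 9.64 to 11.3 in Clock-/- libraries.

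Named by the Clock-/- comparison alone were Fstl5, Hist1h4j and the microRNA gene Gm44361. Fstl5, which encodes a follistatin-like secreted protein and has its member peak at an internal start, was at 7.78, 9.11 and 8.26 TPM in Bmal1-/-, 2.29, 2.07 and 2.42 in Clock-/- and 8.12, 7.46 and 7.13 in WT cells (log2 fold change -1.39, SE 0.11, adjusted p = 9.74e-06 in Clock-/- and 0.13, adjusted p = 0.344 in Bmal1-/- cells). The histone H4 gene Hist1h4j was at 5.28, 6.50 and 7.23 in Bmal1-/-, 8.63, 8.08 and 7.57 in Clock-/- and 2.87, 3.75 and 3.30 in WT cells (1.08, adjusted p = 0.000201 in Clock-/- and 0.77, adjusted p = 0.000947 in Bmal1-/- cells). It has near-identical copies, so its counts are uncertain. Gm44361 was at 1.5, 2.33 and 7.001 TPM in Bmal1-/- cells, listed at 0 in 2 Clock-/- libraries and at 2.15 in the third, and at 8.44, 5.45 and 3.88 in WT cells, and its Clock-/- call (adjusted p = 0.00893) was lost under 10 of the other settings.

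On chromosomes 11 and 1 the member genes moved the way the whole chromosome did in Bmal1-/- cells, and on chromosome 18 they did not. On chromosome 11, with 36 member genes tested, 18 rose and 4 fell with a median log2 fold change of 0.41, while over all 1201 genes tested there 42.6% rose and 9.74% fell with a median of 0.35. On chromosome 1, 1 of 24 member genes rose and 12 fell with a median of -0.58, while over all 932 genes 5.79% rose and 36.6% fell with a median of -0.35. On chromosome 18, 7 of 15 member genes rose and 1 fell with a median of 0.34, while over all 399 genes 16.0% rose and 20.6% fell with a median of -0.13. On chromosome 2, 1 of 15 rose and 6 fell, while over all 1121 genes 13.7% rose and 20.7% fell. On chromosome 16 in Clock-/- cells 0 of 11 member genes rose and 6 fell (median -0.44), with a median of -0.46 over all genes there. The shares of all genes on that chromosome that rose and fell in Clock-/- cells were not counted. Over all genes tested they were 9.50% and 14.4%. Outside chromosome 11, a restriction chosen after the data were seen, 69 of 337 member genes rose (20.5%), against 16.3% of 13830 genes, where with chromosome 11 it was 23.3% against 18.4%.

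Among the named genes, Abhd15, Map3k3, Ubald2, Ppm1d, Mir22hg and Top2a lie on chromosome 11 and Cryba2, Pam and Dst on chromosome 1. After each gene's chromosome median was taken off, the Bmal1-/- log2 fold change was 1.39 for Abhd15, 1.05 for Map3k3, 0.99 for Ubald2, 0.82 for Ppm1d and -2.03 for Mir22hg. Cryba2 came to -2.52 and Pam to -1.53. These 7 kept their direction and their call, Top2a lost its call (0.26, adjusted p = 0.106), and Dst passed neither before nor after (-0.34, adjusted p = 0.275). For Ndrg1, on chromosome 15, the values were 1.38 in Bmal1-/- and -1.85 in Clock-/- cells. The part of these shifts of whole chromosomes in the changes of single genes was not tested.

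The gene lists were chosen with earlier results of these data known, and member genes were 2.48% of all genes tested. Of the 61 tested genes of cell cycle and DNA replication, 17 rose and 5 fell in Bmal1-/- cells (background 18.4% and 21.0%). In the Clock-/- line 4 rose and 17 fell (background 9.50% and 14.4%), and 6 of the genes were member genes. Top2a, the topoisomerase that untangles DNA in mitosis, was at 537.4, 557.6 and 579.4 TPM in Bmal1-/-, 259.9, 210.8 and 308.8 in Clock-/- and 400.6, 363.0 and 341.2 in WT cells. Bmal1-/- was highest and Clock-/- lowest without overlap, and both changes passed, at 0.60 (adjusted p = 0.00227) and -0.52 (adjusted p = 0.00839), although these calls were lost under 4 and 9 of the other settings. The rise of Top2a, on chromosome 11, did not pass with the chromosome median subtracted (0.26, adjusted p = 0.106). Cdk1, the kinase that drives entry into mitosis, was at 195.3, 206.9 and 217.0 in Bmal1-/-, 145.2, 158.0 and 136.5 in Clock-/- and 168.4, 165.5 and 165.5 in WT cells, and rose in Bmal1-/- (0.31, adjusted p = 0.00374) while -0.18 in Clock-/- cells did not pass (adjusted p = 0.0568). The Cdk1 call was lost under 6 of the other settings, 5 of them with 1 library left out. Cdc20 was at 457, 389 and 416 in Bmal1-/-, 256, 267 and 261 in Clock-/- and 370, 371 and 365 in WT cells, where 0.19 did not pass (adjusted p = 0.0331) and -0.50 did (adjusted p = 0.000279). In all 3 the order of the groups was the same. Mki67 (-0.11), Pcna (0.17) and E2f7 (0.36) did not pass in Bmal1-/- cells (adjusted p = 0.575, 0.0285 and 0.0607).

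The few member genes in the lists of the proteasome and the mitochondrial ribosome fell or did not pass in Bmal1-/- cells. The background for the list counts was 18.4% rising and 21.0% falling in Bmal1-/- cells. In the Clock-/- line it was 9.50% and 14.4%. Of 36 tested proteasome genes, 2 rose and 14 fell in Bmal1-/- and 2 rose and 6 fell in the Clock-/- line. Both member genes fell in Bmal1-/- cells, Psma3 (62.3, 70.8 and 68.3 TPM, against 123.4, 114.6 and 117.8 in WT, log2 fold change -0.81, adjusted p = 3.53e-05) and Psma1 (-0.48, adjusted p = 0.000291), which encode subunits of the outer ring of the core particle. Of 77 mitochondrial ribosomal protein genes, 16 rose and 17 fell in Bmal1-/- and 11 rose and 3 fell in the Clock-/- line. Mrpl13 fell in Bmal1-/- cells (-0.56, adjusted p = 0.000611), a call lost with the chromosome median subtracted (-0.31, adjusted p = 0.0156), and Mrpl32 (-0.38) and Mrps33 (-0.25) did not pass (adjusted p = 0.0203 and 0.0839). Of 21 genes of the COPI and COPII coats, 1 rose and 11 fell in Bmal1-/- and 1 rose and 6 fell in the Clock-/- line, and Sec24d was the 1 member gene.

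Of the lists of transcription and RNA handling, the processes in which THRAP3 itself works, some held 1 or 2 member genes each. The spliceosome core (54 genes tested) and the ETS factors (18 tested) held 0. Member genes were 2.48% of all genes tested. Their counts stand beside a background of 18.4% rising and 21.0% falling in Bmal1-/- cells, and 9.50% and 14.4% in the Clock-/- line. Maz, a zinc finger protein of GC-rich promoters, was at 339.2, 332.1 and 336.1 TPM in Bmal1-/-, 248.9, 234.7 and 246.5 in Clock-/- and 235.8, 238.4 and 229.4 in WT cells, and rose in Bmal1-/- (0.52, adjusted p = 2.55e-05). In its list, with the bHLH factors of E-boxes, 9 of 24 genes rose and 2 fell in Bmal1-/- and 3 rose and 5 fell in the Clock-/- line. Of 37 SR protein and hnRNP genes, 2 rose and 11 fell in Bmal1-/- and 3 rose and 1 fell in the Clock-/- line, and the member genes Hnrnpf (0.05, adjusted p = 0.509) and Hnrnpul1 (0.07, adjusted p = 0.653) did not pass. Neither did the mRNA export receptor Nxf1 (0.00, adjusted p = 0.997), the Mediator subunit Med23 (0.23, adjusted p = 0.186), the TFIIH subunit Gtf2h5 (-0.11, adjusted p = 0.301), the bZIP factor Atf5 (-0.01, adjusted p = 0.888) or the nucleoporin Nup93 (-0.08, adjusted p = 0.506), all in Bmal1-/- cells. In the lists of these genes, 6 of 24 rose and 6 fell (THRAP3, exon junction and export), 9 of 33 rose and 4 fell (Mediator), 7 of 54 rose and 4 fell (RNA polymerase II), 4 of 32 rose and 11 fell (bZIP) and 3 of 19 rose and 2 fell (nucleoporins) in Bmal1-/- cells.

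The lists of the β-cell and of the clock held 1 and 0 member genes. For their counts, too, the background was 18.4% rising and 21.0% falling in Bmal1-/- and 9.50% and 14.4% in Clock-/- cells. The list of β-cell identity and function, with 9 of 38 rising and 11 falling in Bmal1-/- and 11 rising and 15 falling in Clock-/- cells, had Myt1, a zinc finger factor of endocrine cells, as its 1 member gene (-0.42 in Bmal1-/- cells, adjusted p = 0.0297). In the list of SNAREs and vesicle fusion (68 tested, 19 rose and 16 fell in Bmal1-/-, 10 rose and 16 fell in Clock-/- cells) it was Syt7. No member gene was in the list of the core clock (23 tested, 9 rose and 6 fell in Bmal1-/-, 7 rose and 5 fell in Clock-/- cells), nor in those of ETS factors, aminoacyl-tRNA synthetases, cytosolic ribosomal proteins, oxidative phosphorylation, the spliceosome core, translation initiation and the unfolded protein response.

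Among the 10 strongest members in WT replicate 2, 0 had a gene that passed the test in Bmal1-/- cells, against a background of 18.4% rising and 21.0% falling. Setd1a was at 13.96, 14.7 and 14.3 TPM in Bmal1-/-, 10.3, 7.22 and 13.4 in Clock-/- and 10.2, 9.995 and 8.72 in WT cells (0.53, adjusted p = 0.0285). Dst (-0.69, adjusted p = 0.0374), Mdc1 (0.44, adjusted p = 0.0579), Tspan5 (0.32, adjusted p = 0.0323), Pde12 (-0.16, adjusted p = 0.191), Prdx1 (-0.19, adjusted p = 0.16), Cdca2 (0.14, adjusted p = 0.197), Foxp1 (0.01, adjusted p = 0.915) and Gm45640 (-0.36, adjusted p = 0.0608) did not pass either, nor did Cdc20. The RNA of 3 of the 10 fell in Clock-/- cells, against a background of 14.4% falling there. They were Cdc20, Tspan5 (-0.58, adjusted p = 0.00245) and Foxp1 (-0.37, adjusted p = 0.00844). The calls of Tspan5 and Foxp1 were lost under 3 and 8 of the other settings.

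At the ends of the range of signal ratios the genes went either way, with Mir7032 and 2400006E01Rik not among the genes tested. Of the other 4 members with the largest ratios, against a background of 18.4% rising and 21.0% falling, Arl6ip1 rose in Bmal1-/- cells (0.53, adjusted p = 0.000153), Amdhd2 (-0.44, adjusted p = 0.00145) and 3300005D01Rik (-1.13, adjusted p = 0.000801) fell, and Cdkn2d was at 0.21 (adjusted p = 0.0248). Of the 4 with the lowest, Neurl1b rose (0.61, adjusted p = 0.00138), and Gstz1 (0.01, adjusted p = 0.942), Fancc (-0.03, adjusted p = 0.822) and Prkcz (-0.03, adjusted p = 0.801) did not pass. Over the 373 genes, Spearman's rho was 0.0347 between the log2 signal ratio and the Bmal1-/- log2 fold change and 0.0616 between the WT replicate 2 tag count and the WT TPM, a description over genes that share their libraries.

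By motif, the genes of members with an ETS motif changed by a median of 0.27 on the log2 scale in Bmal1-/- cells (41 genes tested, 14 rose and 4 fell), and those without it by 0.02. For the E-box the medians were 0.14 (39 genes, 13 rose and 6 fell) and 0.04, and for AP-1 -0.24 (21 genes, 4 rose and 9 fell) and 0.07. Over all genes tested 18.4% rose and 21.0% fell. The members with an AP-1 motif had a median WT replicate 2 tag count of 13.6, against 11.6 for those without, and a median signal ratio of 1.222, against 1.355. These are descriptions of small groups with no test, and the AP-1 group holds both Cryba2 and Abhd15, which changed in opposite directions.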

How the data were processed

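THRAP3 ChIP-seq peaks are the authors' HOMER lists, 1 per library, called over 1 input per genotype from reads they aligned to mm10 with Bowtie2 2.2.4. The deposited signal of a peak is its normalized tag count, scaled by HOMER to the same total in each library, its ratio is the fold over input, and its score was not tested. The RNA-seq values are the authors' deposited TPM, from STAR 2.5.0 and featureCounts 1.5.3, per the labels and methods. TPM keeps no read depth, so no count model was used. The authors' comparison tables hold their own fold changes and p-values (DESeq2 1.22.1) and were not used. The ChIP-seq inputs and the eCLIP libraries were not analysed here.

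Peaks were joined to 141767 transcript starts of GENCODE vM21 (GRCm38, the coordinates of mm10) in Python 3.11.15 with pandas 2.3.3 and numpy 2.4.6, and sequences were read from the RefSeq GRCm38 genome. Of 20599 genes in the TPM table, 20499 matched the annotation. In R 4.3.3, limma 3.58.1 (eBayes with trend, all 9 libraries in 1 fit) was run on log2(TPM + 1), over genes with at least 1 TPM in at least 3 libraries, with Benjamini-Hochberg adjustment over the 15031 genes. A gene was called at an adjusted p under 0.01. The scripts were tested on simulated data.

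The members and the gene lists were chosen with earlier results of these data known. Genes named are those of the lists, the 10 largest rises and falls in Bmal1-/- and 5 in Clock-/- cells beyond a log2 fold change of 1, with a mean of at least 5 TPM in the higher group and no overlap between groups, and Thrap3, Arntl and Clock. Regions named are the 10 with the highest tag count, the 5 highest and 5 lowest ratios, and 3 on either side of 1 kb. Stmn1, Dapk3, Ptprc and Cd68 were chosen after their values were seen. Alternatives covered the overlap, window, pseudocount, filter, scaling, samples in the fit and each library left out. Figures were drawn with matplotlib 3.10.9.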

Additional observations from a re-analysis of the deposited data

How the results depend on the processing

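The number of members depends most on the overlap and the threshold. It was 236 with a reciprocal overlap of at least 0.5 of each peak and 104 at a fold over input of at least 8, and 525 to 728 without 1 library's condition, with 728 without Bmal1-/- replicate 2. The median signal ratio of Bmal1-/- to WT replicate 2 was 1.21 as fold over input. In a window of 100 bp, which holds fewer positions, the share of members was 4.64% for AP-1, 16.2% for CCAAT, 0.464% for the CRE, 11.4% for the CRE core TGACG, 3.94% for the E-box (4.42% at coding starts, above members there), 6.27% for ETS, 0.232% for NRF1, 26.2% for the GC box, 1.86% for TATA, 8.59% for the antioxidant response element and 3.48% for the nuclear receptor word AGGTCA.

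Among member genes in Bmal1-/- cells, leaving out a library gave 60 to 66 rises and 53 to 59 falls, and 11 to 13 rises and 19 to 24 falls beyond a log2 fold change of 1. Restricted to genes averaging 5 TPM or more, the last count was 13. In Clock-/- cells the rises were 13 to 34 and the falls 30 to 74 with a library left out, 4 to 5 and 8 to 15 beyond a log2 fold change of 1. With only 2 groups in the fit, 15 rose and 35 fell, 3 of the rises beyond 1, and with quantile normalization 40 rose. In genes averaging 5 TPM or more, 1 rose and 5 fell beyond 1. The share of Clock-/- calls that rose was 31.3%, and with a library left out from 24.5% (without Clock-/- replicate 1) to 41.5% (without Clock-/- replicate 2). Without chromosome 11, chosen after seeing the data, 69 rose and 62 fell in Bmal1-/- cells. Of 1612 alternatives for 116 comparisons of single genes, 46 lost a call, in 9 comparisons, and 30 gained one. In 0 did the direction turn for a gene called under either setting. A change of sign in a gene called under neither was not counted as a turn. Mrpl13 in Clock-/- cells, for example, was at -0.16, and at 0.12 with the chromosome median subtracted. The lost calls were those of Cdk1, Top2a, Mrpl13 and 3300005D01Rik in Bmal1-/- and of Foxp1, Top2a, Gm44361, Slc25a23 and Tspan5 in Clock-/- cells.

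Replicate numbers did not pair the libraries, since deviations from the group mean had a correlation of -0.208 to 0.0742 between libraries of 1 number and -0.163 to 0.212 between others. With the replicate block, 73 member genes rose and 59 fell in Bmal1-/- and 21 rose and 42 fell in Clock-/- cells. The ChIP-seq signal rests on 1 WT library at members, and TPM gives no read depth.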

Other observations

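Member genes of mitosis outside the lists, chosen after their values were seen, had an order like that of Top2a and Cdk1. Kif20a, a kinesin of cytokinesis, was at 158.4, 145.9 and 155.5 TPM in Bmal1-/-, 89.5, 77.0 and 93.5 in Clock-/- and 123.7, 117.9 and 112.7 in WT cells. It rose in Bmal1-/- (0.37, adjusted p = 0.00322, limma) and fell in Clock-/- cells (-0.45, adjusted p = 0.00189). The spindle gene Ckap2 was at 133.4, 148.1 and 153.3 in Bmal1-/-, 77.5, 77.1 and 81.1 in Clock-/- and 116.7, 103.7 and 102.0 in WT cells (0.43, adjusted p = 0.00096, and -0.44, adjusted p = 0.00132). Gpsm2, which orients the spindle, and Nsl1, of the kinetochore, had the same order, with changes of 0.34 and 0.38 in Bmal1-/- and -0.35 and -0.43 in Clock-/- cells. Both genes passed in both lines. Bmal1-/- was highest and Clock-/- lowest without overlap in all 4 genes. With the chromosome median subtracted, Nsl1, on chromosome 1, was at 0.73 in Bmal1-/- cells. Its Clock-/- change then did not pass (-0.17, adjusted p = 0.156, limma).

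Wee1, the kinase that holds back Cdk1, rose in Bmal1-/- cells (0.77, adjusted p = 0.000111) and was at -0.20 in Clock-/- cells (adjusted p = 0.138). Other division genes had another order. Nusap1, of the spindle, fell in both lines (-0.32, adjusted p = 0.00397, and -0.34, adjusted p = 0.00495), and the histone variant H2afx rose in both (0.28, adjusted p = 0.00284, and 0.53, adjusted p = 0.000105). Hmgb2 passed in neither (-0.07 and 0.09).

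Among transcription factors, the nuclear receptor Esrra was at 64.5, 56.3 and 57.0 TPM in Bmal1-/-, 44.9, 41.8 and 46.5 in Clock-/- and 31.8, 31.3 and 31.0 in WT cells (0.89, adjusted p = 8.4e-06, and 0.49, adjusted p = 0.000751), with a peak of 22.0 and 18.7 in Bmal1-/- and 8.54 in WT. Stat3, on chromosome 11, was at 33.0, 27.7 and 31.2 in Bmal1-/-, 34.3, 27.8 and 42.8 in Clock-/- and 68.3, 66.1 and 63.8 in WT cells (-1.09, adjusted p = 0.000109, and -0.92, adjusted p = 0.000583). Its peak had 16.5 and 15.4 in Bmal1-/- and 18.6 in WT. The 5 motifs picked after seeing which short words were frequent in members were described too, and none was tested. The forkhead word TGTTTAC was in 4.64% of members, 15.7% of the distal peaks of the same 3 libraries and 1.30% of coding starts, and the word CAGATG of the NeuroD-type E-box in 13.0%, 31.7% and 6.70%. The homeodomain word TAATGA was in 6.03%, 20.4% and 2.49%, the MAF word TGCTGA in 13.5%, 25.8% and 10.4%, and the word TTTGAA of the cell cycle homology region in 12.1%, 14.4% and 6.11%.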
